A study of Mus musculus with 15 samples.

Results

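Glucose use was described in the cumulus cells of the mouse, which enclose the oocyte, through 44 genes chosen by name: glucose uptake, glycolysis and its regulatory kinases, lactate and pyruvate transport, the pentose phosphate pathway, and the hexosamine and hyaluronan precursor branch. The rule goes by gene name alone, but the list was drawn up with earlier results of these data known. Of the 44 genes, 42 had a probe in the normalized table of the authors (59 of its 20855 gene probes) and 40 had a valid probe, that is a probe flagged well above background on at least 80% of each stage's arrays (56 of 17324 valid probes). The values below are those of the 40 genes, and the other 4 are given by how often they were detected. They are log2 signals over the median valid probe of the same array, so a difference of 1 is a 2-fold change.

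The cells came from B6CBAF1/J mice at 3 stages, with 5 arrays per stage, each array holding RNA pooled from several females according to the methods of the study. NC1 cells were taken from unexpanded complexes punctured out of large follicles of untreated 3-week-old females, whose oocytes rested in prophase I and had little or no developmental competence. C1 cells were taken in the same way from 8-week-old females, whose oocytes also rested in prophase I but had gained competence. C2 cells were taken from expanded complexes in the oviduct of 8-week-old females after superovulation with PMSG and hCG, when the oocyte had reached metaphase II and full competence. Oocytes were removed by pipetting at NC1 and C1 and after a few seconds of hyaluronidase at C2. Age therefore cannot be told apart from stage between NC1 and C1, nor can hormones, enzyme or place of collection from the step of C1 to C2.

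Cumulus cells take up glucose on behalf of the oocyte, which uses glucose poorly itself. Glycolysis splits glucose into pyruvate, which the oocyte oxidizes, and lactate. The pentose phosphate pathway draws glucose 6-phosphate away to make NADPH and ribose, and the hexosamine branch turns fructose 6-phosphate into UDP-N-acetylglucosamine. Together with UDP-glucuronate, that sugar is polymerized into the hyaluronan matrix that loosens the cumulus before ovulation.

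The arrays lay on 4 slides, each of which held all 3 stages, and from 18368 to 24496 gene probes per array were well above background. The tissue label was checked with 9 cumulus and granulosa genes, 8 of which were valid. Their summed linear signal, in multiples of the array median, was 218 to 302 for NC1, 237 to 282 for C1 and 51.5 to 77.6 for C2. Of the 8, 7 were called lower from C1 to C2 by the test given below, where 22.2% of all valid probes were. Signals of other cells moved between stages as well. The sum of 11 oocyte markers, among which Ooep was detected on no array, was 12.8 to 50.9 at NC1, 13.0 to 40.8 at C1 and 0.679 to 17.3 at C2. The sum of 6 theca and stroma markers was 10.6 to 50.1, 9.26 to 15.4 and 0.485 to 0.721, and that of 5 red blood cell markers was 18.9 to 176, 2.76 to 11.1 and 2.13 to 5.63. The sum of 6 oviduct epithelium markers, with Pax8 detected on no array, was 3.74 to 4.75, 4.26 to 6.59 and 10.01 to 18.4. Not all of these markers moved as their sum did. Of the 4 valid ones, 1 was called higher and 2 were called lower from C1 to C2, where 25.4% and 22.2% of all valid probes were. The sums of the leukocyte markers (2.74 to 5.60, 2.84 to 4.35 and 3.06 to 3.81) and of the endothelial markers (0.617 to 0.835, 0.676 to 0.930 and 0.951 to 1.70, with Tek detected on no array) varied less. The part of these cells in the values below was not tested, and in pooled RNA a change in the number of cells and a change of RNA per cell cannot be told apart.

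Between NC1 and C1, 5 of the 40 genes passed the test (limma, Benjamini-Hochberg adjusted p under 0.01), where 2.52% of all valid probes did. Aldoc, Pfkfb4, Slc16a3 and Slc16a11 were higher at C1 and Slc2a4 was lower. The values of both stages did not overlap for 8 of the 40 genes, against 5.97% of all valid probes. The median change of the 40 genes was 0.22, with 27 of them above 0, and that of all valid probes was -0.03. Between C1 and C2, 27 of the 40 genes passed, where 47.6% of all valid probes did. Of these, 23 were higher at C2, a direction taken by 25.4% of all probes, and Slc2a4, Ldhb, Pfkfb2 and Tkt were lower, a direction taken by 22.2%. The median change was 0.83 over the 40 genes and 0.02 over all valid probes, and values did not overlap for 28 genes and for 43.9% of all probes. Between NC1 and C2, a comparison that shares its arrays with the other 2, 30 of the 40 genes passed, where 51.5% of all valid probes did, 25 of them higher (26.5% of all probes) and 5 lower (24.9%), and values did not overlap for 29 genes and for 48.9% of all probes. When a change of at least 2-fold was required as well, 4 genes passed from NC1 to C1 (1.63% of all probes), 19 from C1 to C2 (21.3%) and 23 from NC1 to C2 (24.7%).

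**Figure D1:**
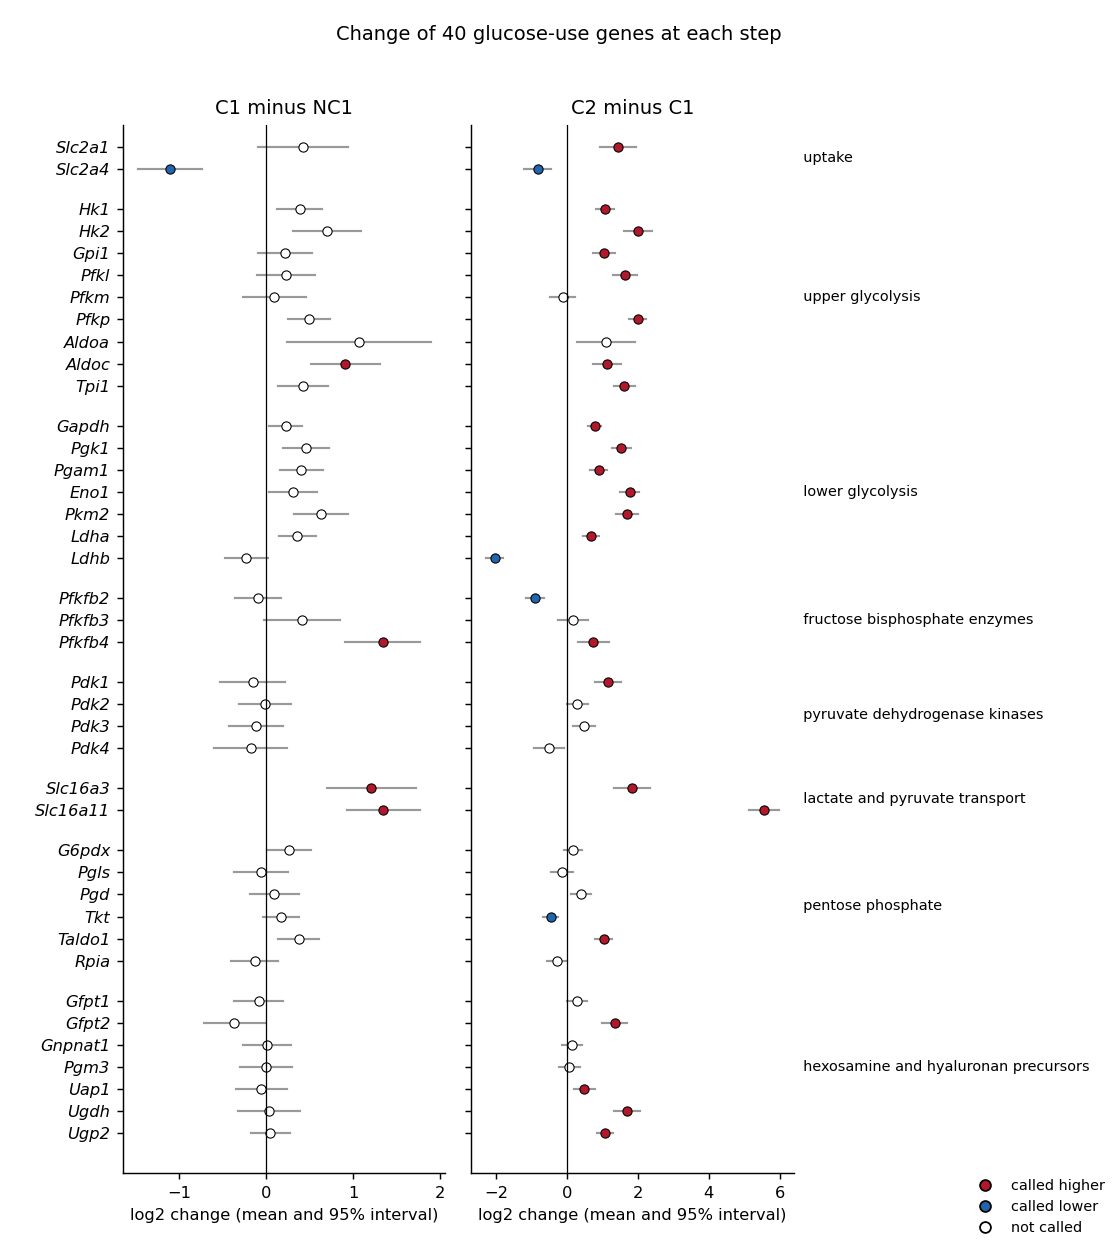
Change of each of the 40 genes with a valid probe from NC1 to C1 (left) and from C1 to C2 (right), on the log2 scale, grouped by branch. Points are the fitted changes, lines their 95% intervals, and coloured points passed the test: 5 genes at the first step, and at the second 23 higher and 4 lower.

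These counts depended on how arrays were put on 1 scale. With scaling on spike-in probes the median change of all valid probes was 0.11 at the first step and -0.14 at the second, and 90.8% of the called probes were higher at C1 and 38.1% at C2, against 69.6% and 53.3% here. With the table of the authors those medians were -0.14 and 0.33, and the shares of higher calls 69.5% and 74.7%. From NC1 to C2 the share was 51.6% here and 65.3% with that table. Among the 40 genes, 14 were called higher from C1 to C2 with spike-in scaling and 25 with the table of the authors, against 23 here. With spike-in scaling 4191 of all valid probes were called at that step, against 8253 here. The changes of 29 of the 40 genes were above 0 with it, against 32 here, and their median was 0.67. On the 4 slides separately, 26 of the 27 genes called from C1 to C2 moved in the same direction on every slide. All 5 called from NC1 to C1 did so too. The slides hold the same arrays, so a gene whose stages do not overlap must agree on every slide. That was the case for all 5 genes of the first step and most of the second, so these counts are no separate check. With slide as a fixed block 25 genes passed from C1 to C2 and 5 from NC1 to C1, with 7759 and 338 of all valid probes. With slide as a random block 27 and 5 did, with 8163 and 422 of all valid probes.

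Glucose enters through the GLUT transporters, and the genes of the constitutive and the insulin-responsive carrier moved in opposite directions. Slc2a1, which encodes GLUT1, had signals of 1.24, 1.00, 1.85, 1.93 and 1.70 at NC1, of 1.94, 1.40, 1.91, 2.72 and 1.85 at C1, and of 3.62, 3.08, 2.86, 3.66 and 3.77 at C2. All C2 arrays lay above all C1 arrays, while NC1 and C1 overlapped. The rise from C1 to C2 was 2.71-fold (log2 change 1.44, 95% interval 0.92 to 1.95, adjusted p = 8.74e-05), and the change from NC1 to C1 was 0.42 (-0.10 to 0.94, adjusted p = 0.427). Slc2a4, which encodes the insulin-responsive GLUT4, had signals of -1.85, -2.11, -2.10, -2.18 and -2.19 at NC1, of -3.27, -3.46, -2.39, -3.63 and -3.21 at C1, and of -3.94, -3.98, -3.96, -4.03 and -4.24 at C2. It was the member that fell at both steps, with no overlap between stages, by 1.11 from NC1 to C1 (adjusted p = 0.000823) followed by 0.84 to C2 (adjusted p = 0.000599). With spike-in scaling the first of these 2 changes was no longer called, at -0.97, nor was the second with normexp background correction, at -0.47. Slc2a3, the gene of the high-affinity carrier GLUT3, had no valid probe and was detected on 4 NC1, 2 C1 and 3 C2 arrays.

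The first reactions of glycolysis trap glucose as its phosphate and prepare it for splitting. None of the 9 genes of these reactions was called lower. From C1 to C2 7 of them were called higher, where 25.4% of all valid probes were, with Pfkm and Aldoa as the exceptions. Hexokinase was measured by its widespread form Hk1 and its inducible form Hk2. Hk2 read 0.31, 0.56, 0.71, 0.53 and 0.20 at NC1, 1.63, 0.45, 1.45, 1.45 and 0.84 at C1, and 3.27, 3.06, 3.16, 3.16 and 3.11 at C2. The C2 arrays were tightly grouped above the rest, whereas C1 replicate 2 lay among the NC1 arrays. Hk2 rose 3.97-fold from C1 to C2 (1.99, adjusted p = 1.25e-07). Its change from NC1 to C1 (0.70, adjusted p = 0.0371) did not pass, and did pass without C1 replicate 2 (0.88, adjusted p = 0.00206). Hk1 rose by less, 2.10-fold from C1 to C2 (1.07, adjusted p = 1.37e-06), and its second probe gave 1.16 without passing (adjusted p = 0.0226).

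Isozymes of 1 reaction were compared within arrays, so that the scale of the array cancels, by an exact two-sided permutation test over the 252 splits of 5 arrays against 5. A total of 13 pairs entered, tested at both steps, and p-values were adjusted over these 26 tests at 0.05. The smallest p this design allows is 0.00794, which becomes 0.0206 after adjustment. From C1 to C2, 9 pairs passed, each at that smallest value, and from NC1 to C1 2 did. Hk2 gained 0.92 on Hk1 from C1 to C2 (exact permutation test, adjusted p = 0.0206), although with the mean over the probes of each gene this difference no longer passed, at 0.87 (adjusted p = 0.0563).

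Phosphofructokinase, which commits the sugar to glycolysis, has liver, muscle and platelet subunits, and these did not move as a group. The platelet subunit gene Pfkp read -0.63, -0.91, -0.99, -0.43 and -0.42 at NC1, -0.13, -0.21, -0.20, -0.29 and -0.11 at C1, and 1.90, 1.88, 1.75, 1.74 and 1.75 at C2. Its 3 stages were fully separated, and it rose 3.98-fold from C1 to C2 (1.99, adjusted p = 5.09e-10), with 0.49 from NC1 to C1 (adjusted p = 0.0179). The liver subunit gene Pfkl rose 3.09-fold from C1 to C2 (1.63, adjusted p = 2.01e-07). The muscle subunit gene Pfkm spanned 0.67 to 1.31 at NC1, 0.76 to 1.53 at C1 and 0.60 to 1.33 at C2. Its change from C1 to C2 was -0.13 (95% interval -0.49 to 0.23, adjusted p = 0.534), with stages that overlapped. Against Pfkm, Pfkp gained 2.12 and Pfkl 1.76 from C1 to C2, and Pfkp gained 0.37 on Pfkl (exact permutation test, adjusted p = 0.0206 for each). The last of these did not pass with normexp background correction, at 0.25.

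Aldolase splits the phosphorylated sugar into trioses. Aldoc, the aldolase C gene, read 0.56, 0.78, 1.29, 1.41 and 0.91 at NC1, 1.66, 1.52, 1.99, 1.75 and 2.58 at C1, and 3.16, 3.01, 2.88, 3.02 and 3.05 at C2. No stage overlapped another. It rose 1.88-fold at the first step (0.91, adjusted p = 0.00784) and 2.18-fold at the second (1.12, adjusted p = 7.81e-05). The first call was marginal: it was lost on leaving out any of 12 of the 15 arrays (all but C1 replicate 2 and NC1 replicates 3 and 4), with adjusted p up to 0.0232 and changes of 0.74 to 1.01. It was lost as well with the table of the authors (0.80, adjusted p = 0.111), the median over all probes (adjusted p = 0.11), the upper quartile over all probes (adjusted p = 0.0103), spike-in scaling (adjusted p = 0.0722), no detection filter (adjusted p = 0.0356), no moderation (adjusted p = 0.0255) and the replicate block (adjusted p = 0.013). Aldoa, the aldolase A gene of most tissues, read 4.94, 5.46, 5.55, 2.87 and 5.64 at NC1, 6.18, 5.60, 5.75, 6.004 and 6.25 at C1, and 7.27, 7.25, 7.17, 6.73 and 6.86 at C2. The low NC1 replicate 4 widened its spread. The changes of 1.06 and 1.10 did not pass at either step (adjusted p = 0.153 and 0.0235). Without that array they were 0.56 (adjusted p = 0.105) and 1.10 (adjusted p = 3.47e-05), so that the second passed. The second also passed with the table of the authors (1.41, adjusted p = 0.00432) and with the median over all probes (1.41, adjusted p = 0.00428). From NC1 to C2 Aldoa rose 4.48-fold with all arrays (2.16, adjusted p = 0.000139). The difference between Aldoa and Aldoc changed by -0.02 from C1 to C2 (exact permutation test, p = 0.921). Gpi1, the glucose phosphate isomerase gene, rose 2.04-fold from C1 to C2 on its main probe (1.03), with 1.02 and 1.03 on its other probes, and the triose isomerase gene Tpi1 rose 3.06-fold (1.61, adjusted p = 3.62e-08).

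In lower glycolysis, where ATP is made and pyruvate is formed and reduced, 7 of 8 genes were valid. All 7 passed from C1 to C2, where 47.6% of all valid probes did, 6 of them upward and Ldhb downward. At the step to C1 limma called 0 of the 7, where 2.52% of all valid probes were called. Of the 7, 6 had an unadjusted p under 0.05, where 16.8% of all valid probes did. The enolase gene Eno1 read 3.93, 3.97, 4.04, 4.43 and 4.24 at NC1, 4.41, 4.23, 4.33, 4.40 and 4.80 at C1, and 6.37, 6.15, 6.35, 5.98 and 6.14 at C2, a rise of 3.40-fold at the second step (1.76, adjusted p = 7.37e-09). Pkm2, the pyruvate kinase M gene Pkm under its older symbol, read 2.56, 2.65, 2.26, 2.87 and 2.76 at NC1, 3.43, 3.12, 3.08, 2.92 and 3.70 at C1, and 5.08, 5.09, 4.89, 4.86 and 4.76 at C2. Its stages did not overlap, and it rose 3.21-fold from C1 to C2 (1.68, adjusted p = 6.41e-08). From NC1 to C1 it changed by 0.63 (adjusted p = 0.0177), which passed without C1 replicate 4 (adjusted p = 0.0088) and with array weights (adjusted p = 0.00898). One probe for the gene does not separate its splice forms. The phosphoglycerate kinase gene Pgk1 rose 2.89-fold (1.53), the phosphoglycerate mutase gene Pgam1 1.85-fold (0.88) and Gapdh, the glyceraldehyde phosphate dehydrogenase gene, 1.71-fold (0.77) from C1 to C2. With spike-in scaling Gapdh, Pgam1, Ldha, Gpi1, Hk1 and Aldoc were no longer called at this step. Eno2, the neuronal enolase gene, failed the detection rule, being detected on 4 NC1, 2 C1 and 5 C2 arrays. Its signals were -3.24, -3.88, -4.99, -3.79 and -4.34 at NC1, -3.86, -4.61, -3.76, -3.54 and -4.86 at C1, and -0.58, -0.97, -0.84, -0.16 and -0.48 at C2. The C2 values stood above all others, and no test was made.

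**Figure D2:**
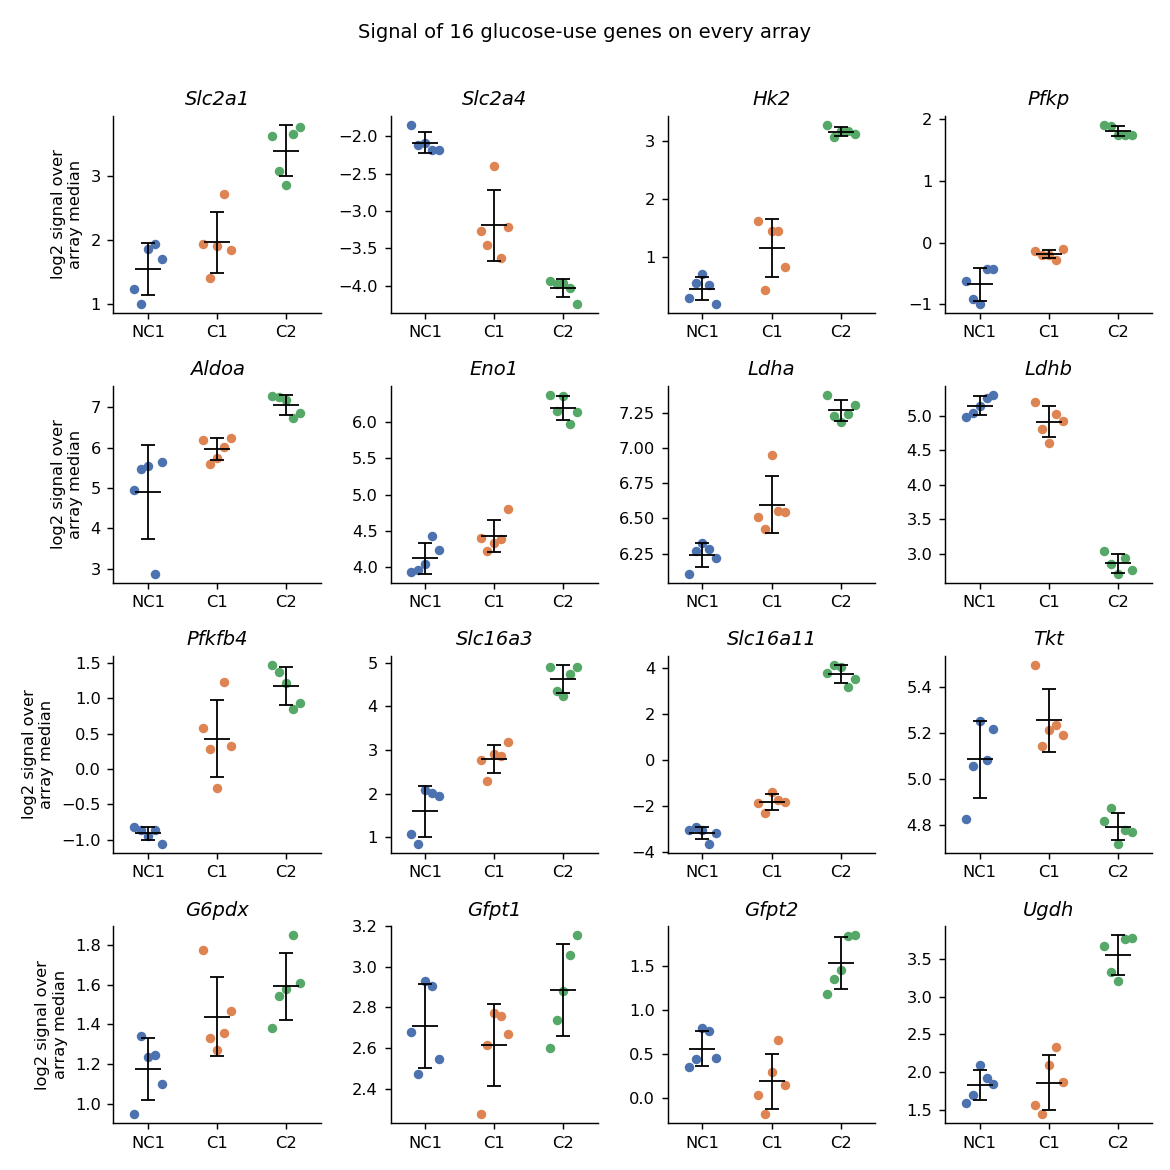
Log2 signal relative to the array median for 16 of the genes, 1 point per array and 5 arrays per stage, with the mean and SD in black. Each panel has its own vertical axis, which does not start at 0. Ldhb at C2 (2.71 to 3.04) lies below both earlier stages and Slc16a11 at C2 (3.19 to 4.12) above both, whereas Gfpt1 overlaps at all stages.

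Lactate dehydrogenase converts pyruvate and lactate into each other, and its A and B subunits favour lactate and pyruvate, respectively. Ldha read 6.11, 6.27, 6.33, 6.28 and 6.22 at NC1, 6.51, 6.42, 6.95, 6.55 and 6.55 at C1, and 7.37, 7.23, 7.19, 7.24 and 7.31 at C2. Ldhb read 4.98, 5.04, 5.14, 5.26 and 5.30 at NC1, 5.20, 4.80, 4.61, 5.02 and 4.92 at C1, and 3.04, 2.85, 2.71, 2.94 and 2.76 at C2. Every C2 array was thus above the C1 arrays for Ldha and below them for Ldhb. Ldha rose 1.59-fold (0.67, adjusted p = 2.83e-05) and Ldhb fell by 2.05 on the log2 scale, so that C1 stood 4.14-fold over C2 (adjusted p = 4.33e-10). Within arrays, Ldha gained 0.59 on Ldhb from NC1 to C1 and 2.72 from C1 to C2 (exact permutation test, adjusted p = 0.0206 for each), while neither gene alone passed at the first step (0.36 with adjusted p = 0.0543, and -0.23 with adjusted p = 0.339).

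The sizes given for Ldha and Gapdh were those of their brightest probes and were the smallest among their probes. Both other valid probes of Ldha gave 1.42 and 1.45 from C1 to C2. The 7 valid probes of Gapdh spanned 0.77 to 1.44, and each of them passed. Of the 9 genes with several valid probes, a disagreement in direction with a call appeared in Gnpnat1, described with the hexosamine genes. Scanner software marked no spot as saturated, and whether bright probes compress changes was not tested.

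**Figure D3:**
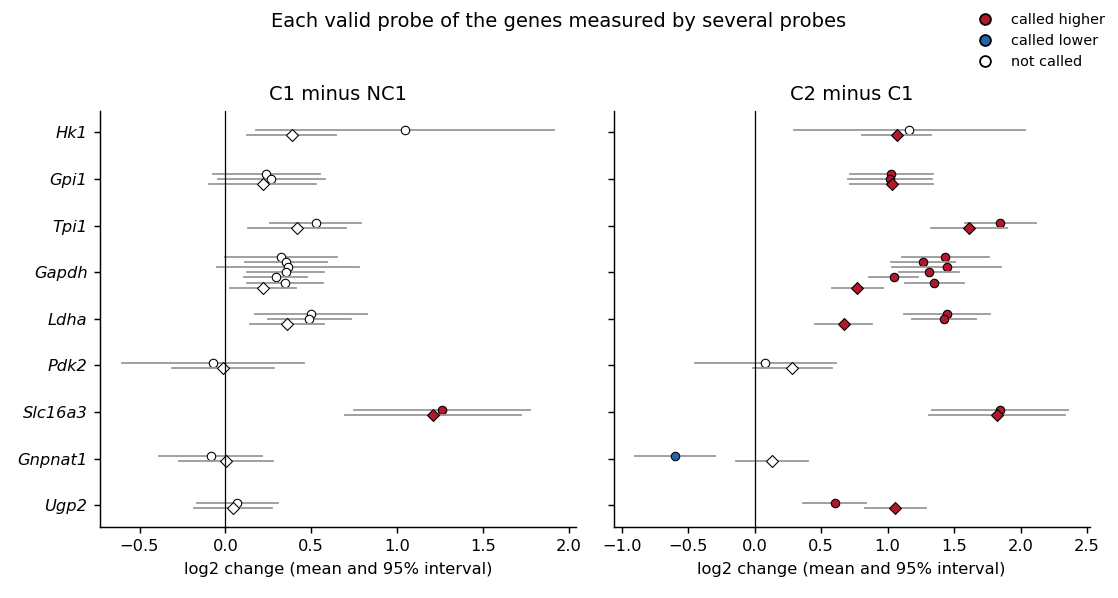
Log2 change of each valid probe of the 9 genes that had several, from NC1 to C1 (left) and from C1 to C2 (right), with 95% intervals. Diamonds are the probes used for the gene, circles the others, and fill marks calls. Gapdh and Ldha changed least on the probe used (0.77 and 0.67 at the right), and 1 Gnpnat1 probe was lower (-0.60).

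The bifunctional PFKFB enzymes make and remove the fructose bisphosphate that activates phosphofructokinase, and the 3 measured genes differed. Pfkfb4 read -0.82, -0.86, -0.94, -0.86 and -1.06 at NC1, 0.58, 0.28, -0.27, 1.23 and 0.32 at C1, and 1.46, 1.37, 1.22, 0.84 and 0.94 at C2. All C1 arrays were above all NC1 arrays, while C1 replicate 4 lay among the C2 arrays. The rise from NC1 to C1 was 2.53-fold (1.34, adjusted p = 0.000658), and was not called with the table of the authors or with the median over all probes. The rise from C1 to C2 was 1.67-fold (0.74, adjusted p = 0.00556). It was lost without any 1 of C1 replicates 2, 3 and 5 or C2 replicates 1, 2 and 3 (adjusted p up to 0.0167), and with spike-in scaling (0.58, adjusted p = 0.183). The same rise was not called with the upper quartile over valid probes, quantile normalization, slide as a fixed block, no detection filter or no moderation. On 1 slide the change was -0.12. Pfkfb3 changed by 0.41 (95% interval -0.02 to 0.85) and 0.16 (-0.27 to 0.60), and passed in no comparison, with C1 values from 0.17 to 1.60. Pfkfb2 fell by 0.91 from C1 to C2 (adjusted p = 8.04e-06), and all its C2 values (-3.07 to -2.77) were below those of C1 (-2.29 to -1.68). This fall was not called with the table of the authors. Pfkfb3 lost 0.93 against Pfkfb4 from NC1 to C1 (exact permutation test, adjusted p = 0.0375), a difference that no longer passed without any 1 of the NC1 arrays (adjusted p up to 0.103). Against Pfkfb2 it gained 1.08 from C1 to C2 (exact permutation test, adjusted p = 0.0206).

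Pyruvate dehydrogenase kinases switch off the entry of pyruvate into the tricarboxylic acid cycle. At the step from NC1 to C1 limma called 0 of the 4, where 2.52% of all valid probes were called. Their changes were -0.18 to -0.01. Of the 4, 0 had an unadjusted p under 0.05, where 16.8% of all valid probes did. Pdk1 read -1.13, -1.12, -1.60, -1.60 and -1.40 at NC1, -1.89, -1.43, -0.95, -1.89 and -1.48 at C1, and -0.50, -0.65, -0.41, -0.05 and -0.25 at C2. It rose 2.23-fold from C1 to C2 without overlap (1.16, adjusted p = 2.92e-05). Pdk2 (0.28, adjusted p = 0.0943) and Pdk3 (0.46, adjusted p = 0.0122) did not pass at that step. Pdk3 passed without any 1 of C2 replicates 1 and 2 or NC1 replicate 3 (adjusted p down to 0.0047). It also passed with the table of the authors (0.77, adjusted p = 0.00247), the median and the upper quartile over all probes, quantile normalization and array weights. With quantile normalization Pdk2 passed too (0.44, adjusted p = 0.00636). Pdk1 gained 0.87 on Pdk2 and 0.69 on Pdk3 (exact permutation test, adjusted p = 0.0206 for each). Pdk4 pointed the other way. Its change from C1 to C2 was -0.52 (adjusted p = 0.033). That change passed without C2 replicate 5 (-0.68, adjusted p = 0.00463) and with the upper quartile over valid probes (-0.63, adjusted p = 0.00991). From NC1 to C2 Pdk4 fell by 0.70 (adjusted p = 0.00564). This last call was lost without any 1 of C2 replicates 1, 2 and 3 or NC1 replicates 3 and 4 (adjusted p up to 0.0178). It was lost as well with the table of the authors, the median over all probes, spike-in scaling, array weights, no detection filter and no moderation. The loss of 0.80 of Pdk4 against Pdk2 from C1 to C2 missed the threshold (exact permutation test, adjusted p = 0.0516).

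**Figure D4:**
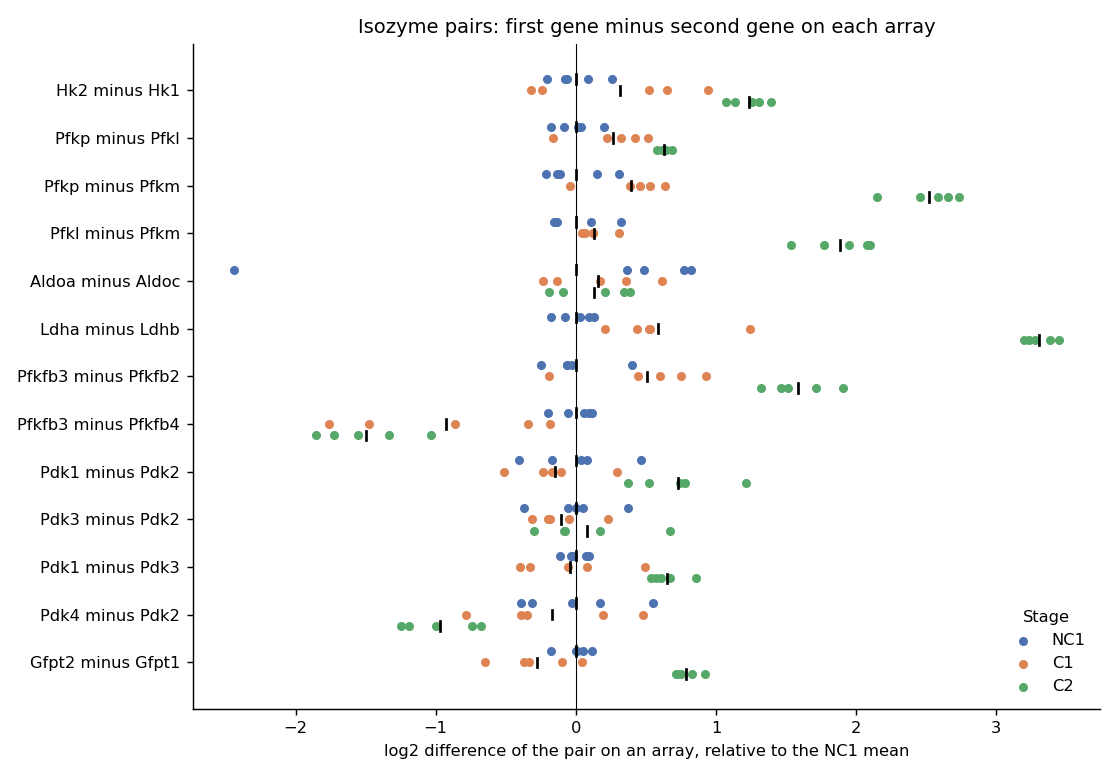
Difference between 2 genes of 1 reaction or family on each array, on the log2 scale and relative to its NC1 mean, for the 13 pairs with both genes valid. Points are arrays and black bars are stage means. Ldha minus Ldhb and Pfkp minus Pfkm moved furthest at C2 (2.72 and 2.12 over C1), whereas Aldoa minus Aldoc moved by -0.02.

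Lactate and pyruvate leave and enter cells through monocarboxylate transporters, of which 2 of 4 were valid, and both rose at both steps. Slc16a3, which encodes the lactate exporter MCT4, read 1.08, 0.85, 2.08, 2.01 and 1.93 at NC1, 2.76, 2.30, 2.92, 2.85 and 3.17 at C1, and 4.89, 4.35, 4.23, 4.74 and 4.91 at C2. Slc16a11, which encodes MCT11, a carrier linked to pyruvate transport, read -3.04, -2.92, -3.06, -3.65 and -3.17 at NC1, -1.87, -2.32, -1.38, -1.71 and -1.84 at C1, and 3.80, 4.12, 4.07, 3.19 and 3.54 at C2. No array of a stage reached the next stage for either gene. Slc16a3 rose 2.31-fold from NC1 to C1 (1.21, adjusted p = 0.00596) and 3.54-fold from C1 to C2 (1.82, adjusted p = 6.52e-06), and its second probe gave 1.26 and 1.84, both called. Its first rise was lost without any 1 of C1 replicates 1, 3, 4 and 5 or NC1 replicates 1 and 2 (adjusted p up to 0.0195). The same rise was not called with the table of the authors (1.10, adjusted p = 0.0419), the median over all probes (adjusted p = 0.0416), spike-in scaling (adjusted p = 0.0128), normexp background correction (adjusted p = 0.0104), no detection filter (adjusted p = 0.0275) or no moderation (adjusted p = 0.025). Slc16a11 rose 2.54-fold at the first step (1.35, adjusted p = 0.000438) and 47.4-fold at the second (5.57, adjusted p = 3.42e-12), which was the largest change among the 40 genes at either step. Its NC1 signals were low, though well above background on all 5 arrays. Over the alternatives its changes were 0.94 to 1.49 at the first step and 5.20 to 5.88 at the second, each called throughout. Slc16a1 and Slc16a7, which encode MCT1 and MCT2, were not named in the table of the authors. Probes matched to them by accession were detected at NC1, C1 and C2 on 0, 1 and 0 arrays for Slc16a1 and on 2, 3 and 1 for Slc16a7.

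Since Aldoc, Pfkfb4, Slc16a3 and Slc16a11 were the members called higher at both steps, the first step of Aldoc, Pfkfb4 and Slc16a3 with the limits given above, the 250 bases before their RefSeq start sites (assembly GRCm38.p6) are shown, 5′ to 3′ on the strand of the gene. Capitals mark ACGTG and GCGTG, on either strand (CACGT and CACGC on the other), which are the core letters of the hypoxia response element. Aldoc has 2 listed starts, the first of which is given. The windows are chr9:108991652-108991901 for Pfkfb4, chr11:70213660-70213909 for Slc16a11, chr11:120948817-120949066 for Slc16a3 and chr11:78322823-78323072 for Aldoc, all on the + strand.
Pfkfb4: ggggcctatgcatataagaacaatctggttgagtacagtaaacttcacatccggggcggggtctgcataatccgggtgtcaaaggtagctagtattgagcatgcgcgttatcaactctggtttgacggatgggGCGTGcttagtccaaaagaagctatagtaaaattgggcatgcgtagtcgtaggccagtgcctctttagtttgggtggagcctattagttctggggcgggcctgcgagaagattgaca
Slc16a11: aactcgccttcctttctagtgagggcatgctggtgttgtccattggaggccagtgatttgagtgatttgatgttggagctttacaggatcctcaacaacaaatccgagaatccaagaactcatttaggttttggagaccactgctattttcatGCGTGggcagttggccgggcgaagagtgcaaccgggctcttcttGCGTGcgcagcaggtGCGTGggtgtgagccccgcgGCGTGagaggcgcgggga
Slc16a3: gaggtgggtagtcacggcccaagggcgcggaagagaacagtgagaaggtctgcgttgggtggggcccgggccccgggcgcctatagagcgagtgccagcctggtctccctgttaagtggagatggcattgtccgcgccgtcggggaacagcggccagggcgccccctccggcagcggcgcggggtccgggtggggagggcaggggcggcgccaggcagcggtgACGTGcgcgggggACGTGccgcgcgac
Aldoc: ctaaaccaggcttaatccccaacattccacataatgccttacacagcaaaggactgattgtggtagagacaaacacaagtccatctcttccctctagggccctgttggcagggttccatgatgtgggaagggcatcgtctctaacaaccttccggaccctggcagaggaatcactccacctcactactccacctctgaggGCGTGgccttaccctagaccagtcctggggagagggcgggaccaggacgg
The window of Slc16a11 holds 4 copies of GCGTG, that of Slc16a3 2 copies of ACGTG, and those of Pfkfb4 and Aldoc 1 GCGTG each. Windows were listed for 40 of the 44 genes (58 windows). ACGTG stood in 36.2% of them and in 16.6% of the 32851 windows of all genes, and GCGTG in 58.6% and 28.2%. The E-box CACGTG, which contains ACGTG, stood in 10.3% and 6.02%, and the cAMP response element TGACGTCA in 1.72% (Ldha alone) and 1.55%. Base composition differed too, with a median GC content of 60.4% in the windows of these genes and 52.4% in all windows, and its part in these shares was not tested. By gene, 9 of the 23 called higher from C1 to C2 held ACGTG and 16 held GCGTG. The counts were 17 and 29 among the 40 genes with a window, which are not the same 40 as those with a valid probe. Of all genes, 18.5% held ACGTG and 30.9% held GCGTG. A match of letters is a description and not a binding site.

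The pentose phosphate genes moved by smaller amounts and in both directions. From NC1 to C1 limma called 0 of the 6, where 2.52% of all valid probes were called. Of the 6, 2 had an unadjusted p under 0.05, where 16.8% of all valid probes did. From C1 to C2 the median change over the branch was 0.00. At that step 2 of the 6 passed, where 47.6% of all valid probes did: Taldo1 rose and Tkt fell. These 2 genes encode the enzymes that return pentoses to glycolysis. Taldo1, the transaldolase gene, read 3.78 to 4.21 at NC1, 4.20 to 4.57 at C1 and 5.21 to 5.56 at C2, a rise of 2.04-fold at the second step (1.03, adjusted p = 8.59e-07), not called with spike-in scaling (0.87, adjusted p = 0.0155). Tkt, the transketolase gene, read 4.83, 5.05, 5.25, 5.08 and 5.22 at NC1, 5.49, 5.14, 5.21, 5.23 and 5.19 at C1, and 4.82, 4.87, 4.72, 4.78 and 4.77 at C2. It fell by 0.46 from C1 to C2 (adjusted p = 0.000768) without overlap, but the fall was -0.16 and not called with the table of the authors, nor was it called with spike-in scaling (-0.62, adjusted p = 0.094). The oxidative steps, which yield NADPH, changed little. G6pdx, the gene of the rate-limiting dehydrogenase, read 0.95, 1.34, 1.24, 1.25 and 1.10 at NC1, 1.77, 1.33, 1.27, 1.36 and 1.47 at C1, and 1.38, 1.54, 1.58, 1.85 and 1.61 at C2. Its changes of 0.26 (95% interval 0.01 to 0.52) and 0.15 (-0.10 to 0.40) did not pass. From NC1 to C2 it rose 1.33-fold (0.42, adjusted p = 0.00596), a call lost without any 1 of C2 replicates 2 to 5 or NC1 replicates 1 and 5 (adjusted p up to 0.0195). This call was also lost with the table of the authors, the median over all probes, the upper quartile over valid probes, quantile normalization and spike-in scaling. The same held for normexp background correction, no detection filter, slide as a fixed block and the replicate block. The dehydrogenase gene Pgd rose 1.40-fold from NC1 to C2 (0.49, adjusted p = 0.00433), a call lost without C2 replicate 4 or NC1 replicate 1, 2 or 3. This call was also lost with the table of the authors, the median over all probes, the upper quartile over valid probes, quantile normalization and spike-in scaling. The same held for no detection filter and slide as a fixed block. Pgls, the lactonase gene, passed in no comparison (-0.06 and -0.15). Rpia, the ribose phosphate isomerase gene, fell by 0.42 from NC1 to C2 (adjusted p = 0.00958), a call lost on leaving out any of 11 of the 15 arrays (all but C1 replicates 2 and 5, C2 replicate 4 and NC1 replicate 4), with adjusted p up to 0.0286. It was also lost under most other settings of scale, detection filter and block, among them the table of the authors (-0.22) and spike-in scaling (-0.44).

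In the hexosamine and hyaluronan precursor branch, limma called 0 of the 7 genes from NC1 to C1, where 2.52% of all valid probes were called. Of the 7, 1 had an unadjusted p under 0.05, as 16.8% of all valid probes did. From C1 to C2 4 of the 7 genes passed, where 47.6% of all valid probes did. All 4 were higher, a direction taken by 25.4% of all probes, and Gnpnat1, Pgm3 and Gfpt1 did not pass. GFAT, the first and rate-limiting enzyme of the hexosamine branch, is encoded by Gfpt1 and Gfpt2. Gfpt2 read 0.36, 0.44, 0.79, 0.76 and 0.45 at NC1, 0.03, -0.18, 0.30, 0.65 and 0.15 at C1, and 1.18, 1.34, 1.45, 1.83 and 1.84 at C2. All C2 arrays exceeded all others, and the rise from C1 was 2.53-fold (1.34, adjusted p = 3e-06). Gfpt1 changed by 0.27 from C1 to C2 (95% interval -0.02 to 0.56, adjusted p = 0.0981), with overlapping stages, and Gfpt2 gained 1.07 on it (exact permutation test, adjusted p = 0.0206). The middle of the branch moved less. Gnpnat1, an acetyltransferase gene, changed by 0.13 (-0.14 to 0.40) on its main probe and fell by 0.60 on its second (adjusted p = 0.00168), so that its direction was not settled. Pgm3, the acetylglucosamine phosphate mutase gene, changed by 0.06 (-0.24 to 0.36), and by -0.10 with spike-in scaling. Uap1, whose product forms UDP-N-acetylglucosamine, rose 1.40-fold (0.48, adjusted p = 0.00674), with values that overlapped those of C1. That call was lost without any 1 of C1 replicates 1, 2, 3 and 5 or C2 replicates 1, 4 and 5 (adjusted p up to 0.0223), and with spike-in scaling (0.32). It was lost as well with the upper quartile over valid probes, quantile normalization, slide as a fixed block and no detection filter.

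The genes of the other hyaluronan precursor, UDP-glucuronate, both rose at C2. Ugp2, whose product forms UDP-glucose, read 1.04 to 1.22 at NC1, 0.92 to 1.28 at C1 and 2.00 to 2.42 at C2, a rise of 2.08-fold (1.06, adjusted p = 3.28e-07), and its second probe gave 0.60 (adjusted p = 0.000197). Ugdh, whose product oxidizes UDP-glucose to UDP-glucuronate, read 1.59, 1.69, 2.10, 1.92 and 1.85 at NC1, 1.56, 1.45, 2.09, 2.33 and 1.87 at C1, and 3.67, 3.33, 3.20, 3.76 and 3.77 at C2. It rose 3.22-fold from C1 to C2 (1.69, adjusted p = 3.1e-07) and changed by 0.03 (95% interval -0.33 to 0.39) from NC1 to C1. Has2, the hyaluronan synthase gene that joins both precursors, failed the detection rule, being well above background on 5 NC1, 2 C1 and 5 C2 arrays, with mean signals of -3.27, -3.69 and -1.10.

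Other genes of these pathways were counted from a list of 74, of which 54 were valid. Of these, 3 were called higher and none lower from NC1 to C1, where 1.75% and 0.768% of all valid probes were. From C1 to C2 14 were called higher and 18 lower, where 25.4% and 22.2% of all valid probes were. The median changes of the 54 genes were 0.00 and -0.07. Emb, which encodes embigin, a chaperone of monocarboxylate transporters, read -2.04, -1.82, -3.06, -2.73 and -2.67 at NC1, -0.66, -1.01, -1.14, -0.68 and -0.59 at C1, and 2.67, 2.53, 2.81, 2.93 and 2.68 at C2. Its rises were 1.65 (adjusted p = 6.55e-05) and 3.54 (adjusted p = 3.73e-10). Pcx, the pyruvate carboxylase gene, also rose at the first step (1.01). At the second step the largest rises after Emb were those of the glycogen genes Pygl (2.73), Pgm1 (1.86) and Gys1 (1.48) and of the aromatic amino acid transporter Slc16a10 (1.98). The largest falls were those of Prps1 (-1.39), a ribose phosphate user like Prps2, which fell by 2.00, of the brain-type glycogen phosphorylase Pygb (-1.67), of Adpgk, an ADP-dependent glucokinase gene (-1.56), and of Bpgm, the bisphosphoglycerate mutase gene (-1.04).

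Of 17 regulators of glucose use, 14 were valid. From NC1 to C1 limma called 0 of the 14, where 2.52% of all valid probes were called. Of the 14, 2 had an unadjusted p under 0.05, as 16.8% of all valid probes did. From C1 to C2 5 were called higher and 4 lower, where 25.4% and 22.2% of all valid probes were. The rises were those of Prkaa1, a catalytic subunit of AMP-activated kinase (1.19), Myc (0.93), Hif1a, the hypoxia-inducible factor subunit (0.92, adjusted p = 0.00594), Egln2, an oxygen-sensing hydroxylase gene (0.82), and Mlx, the partner of glucose-sensing factors (0.54). The falls were those of Txnip, an inhibitor of glucose uptake (-2.45, adjusted p = 3.82e-09), Epas1, which encodes a second hypoxia-inducible subunit (-2.36, adjusted p = 2.45e-08), the glucose-sensing factor Mlxipl (-2.05) and the insulin receptor gene Insr (-0.47). Epas1 read 3.06, 3.25, 3.88, 3.58 and 3.03 at NC1, 3.40, 3.24, 2.71, 3.74 and 3.16 at C1, and 0.64, 0.80, 0.79, 1.19 and 1.01 at C2. The 2 hypoxia-inducible subunits therefore moved in opposite directions at C2, each called.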

How the data were processed

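The authors hybridized 1-colour Agilent arrays, 1 per pool of cumulus cells, and deposited the scanner output, in which the intensity of each spot was background-subtracted by Agilent Feature Extraction (10.7.1.1 per the file headers and 10.5.1.1 per the labels). The authors also deposited a normalized table of log2 values, which here equalled the log2 intensity shifted by 1 constant per array (largest SD 0.00742). It decided which probes were considered and served as an alternative scale. Groups were taken from the sample labels.

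Spots that were controls, or that the scanner software marked as uneven or as outliers of their probe, were removed, and the spots of a probe were averaged. The log2 intensity was scaled to the median valid probe of each array. A probe was valid when flagged well above background on at least 80% of the arrays in every one of the 3 stages. The 15 arrays entered 1 linear model (limma 3.58.1, R 4.3.3), moderated and two-sided, with Benjamini-Hochberg adjustment over 17324 probes at 0.01 and intervals at 95% from the moderated standard errors. Of these values 20 were missing. Each gene was given by its valid probe of highest mean, and other probes were named where they differed. Isozyme pairs were compared by exact permutation in Python 3.11.15. The code was tested on simulated data. All listed genes were accounted for by branch, and from the lists of other pathway genes and regulators at most the 5 largest called changes per direction and step were named, except that 1 such gene is not reported here. The members, lists and motifs were chosen with earlier results of these data known. Since the labels do not say that the pools of a stage were otherwise independent, p-values measure the spread between these arrays, and the number of arrays limits the precision.

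Alternatives covered the array scale, background correction by normexp (on median signals, with an offset of 50), spot and detection filters, probe averaging, array weights, moderation, slide and replicate blocks, thresholds and each array left out, 34 per comparison.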

Additional observations from a re-analysis of the deposited data

Results flagged for a closer look

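Within the 5 arrays of a stage, 1 array lay apart from the others (gap over range above 0.71) in 7 of 120 combinations of gene and stage, where chance gives about 1 in 20. Slc2a4 was high in NC1 replicate 1, at -1.85, with the others at -2.19 to -2.10. Aldoa was low in NC1 replicate 4, at 2.87, with the others at 4.94 to 5.64. Ldha was high in C1 replicate 3, at 6.95, with the others at 6.42 to 6.55, and Pgd was low on the same array, at 1.37 against 1.85 to 2.03. Tkt was high in C1 replicate 1, at 5.49 against 5.14 to 5.23. Rpia was low in NC1 replicate 4, at -0.20 against 0.17 to 0.32, and in C2 replicate 1, at -0.52 against -0.22 to -0.10.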

How the results depend on the processing

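No called change of a member or a pair took the opposite sign under any alternative run. From NC1 to C1, 5 members were called (4 higher, 1 lower; 437 of all probes). The count was 2 with the table of the authors (1 higher, 272 probes) and with the median over all probes (1 higher, 271 probes). It was 3 without a detection filter (2 higher, 390 probes) or without moderation (2 higher, 305 probes). It was 2 with spike-in scaling (2 higher, 0 lower, 260 probes) and 9 at an adjusted p under 0.05 (8 higher, 872 probes). A change of at least 2-fold left 282 probes. Leaving out 1 array gave 3 to 6 members, 2 to 5 of them higher, and 313 to 466 of all probes. The members numbered 3 without C1 replicate 1, 3 or 5 or NC1 replicate 1 or 2. From C1 to C2, 27 were called (23 higher, 4 lower; 8253 probes). Spike-in scaling gave 17 (14 higher; 4191 probes), and the lower members numbered 2 with the table of the authors and with the median over all probes, and 1 at 2-fold (3694 probes). From NC1 to C2 the 5 lower members became 3 with the table of the authors, the median over all probes, no detection filter, spike-in scaling (4887 probes) and 2-fold (4285 probes), and 3 to 5 on leaving out 1 array (3 without C2 replicate 1, 2 or 3 or NC1 replicate 3). The cause was not tested. The replicate numbers were not taken to pair the arrays, since not every correlation between same-numbered deviations was above 0.1. The lowest and the median were 0.06 and 0.34 for NC1 and C1 (median -0.08 for other numbers), -0.17 and -0.04 for C1 and C2 (0.07) and -0.24 and -0.10 for NC1 and C2 (0.05), and 6, 1 and 0 of 10 arrays correlated best with their own number. With the replicate block 4, 27 and 29 members were called, and 404, 8059 and 8767 of all valid probes. The pair tests with that block gave 0 and 0 against 2 and 9, since 5 pairs cannot reach the threshold by exact sign flips (smallest p 0.0625). Leaving out 1 array gave 1 to 4 pairs from NC1 to C1 (without C1 replicate 5 or any NC1 array) and 9 to 10 from C1 to C2. Signal over background limited Slc2a3, Eno2, Slc16a1 and Slc16a7.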
